A study of Mus musculus with 12 samples.

Results

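The hypocretin gene Hcrt and 7 genes known as markers of Hcrt neurons, Pdyn, Lhx9, Qrfp, Nptx2, Nr6a1, Hmx2 and Hmx3, were followed over 12 RNA-seq libraries of cultured mouse hypothalamic cells. These 8 genes were taken by symbol from 48709 Ensembl gene identifiers with a read count in each library, and all 8 were found. The cells came from C57BL/6 hypothalami at embryonic day 18 and had grown for a week as neurospheres, floating clusters of neural cells, with basic fibroblast growth factor (10 ng/ml) added 24 h after a reporter virus (multiplicity of infection 10). They were then sorted by fluorescence into 4 groups of 3 libraries. mCherry-positive and mCherry-negative cells had received an adeno-associated virus whose mCherry reporter was meant for Hcrt cells, and their cDNA was made from 0.8 ng of RNA. EGFP-positive and EGFP-negative cells had received lentivirus particles whose EGFP reporter was meant for cells that make melanin-concentrating hormone (MCH), with 2.0 ng of RNA. Virus, RNA input and reporter therefore changed together between the sorts and cannot be told apart. The promoters that drove the reporters are not given in the sources used here, nor is it stated whether replicates were separate cultures, so each p-value reflects the scatter among these libraries alone, and that scatter may be technical.

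Hcrt encodes a precursor that is cut into hypocretin 1 and hypocretin 2, also called orexins, which act on the receptors Hcrtr1 and Hcrtr2 and keep animals awake. The neurons that make them lie in the lateral and perifornical hypothalamus, are glutamatergic, and release dynorphin from the Pdyn precursor together with hypocretin. Qrfp encodes another neuropeptide of this region, Nptx2 a secreted pentraxin that gathers AMPA-type glutamate receptors at synapses, and Lhx9, Nr6a1, Hmx2 and Hmx3 encode transcription factors.

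Hcrt (ENSMUSG00000045471, GRCm38 chr11:100761069-100762931, minus strand) and Pdyn (ENSMUSG00000027400, chr2:129686565-129699844, minus strand) are the peptide gene for which the mCherry reporter stands and the member whose level differed most clearly between sorted cells. The 250 bases before a RefSeq start of each are shown with those of Hmx2 (ENSMUSG00000050100, chr7:131548773-131558014, plus strand), because Hcrt and Hmx2 were the members with a TATAAA there. They are from the RefSeq table on GRCm38.p6, run 5' to 3' on the gene's strand, and have TATAAA in capitals. The windows are chr11:100762932-100763181 for Hcrt, chr2:129699939-129700188 for Pdyn and chr7:131548507-131548756 for Hmx2.
Hcrt: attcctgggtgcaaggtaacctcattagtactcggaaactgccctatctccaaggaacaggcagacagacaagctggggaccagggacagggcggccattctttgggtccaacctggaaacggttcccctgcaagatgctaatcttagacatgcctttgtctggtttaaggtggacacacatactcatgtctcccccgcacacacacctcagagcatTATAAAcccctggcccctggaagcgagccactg
Pdyn: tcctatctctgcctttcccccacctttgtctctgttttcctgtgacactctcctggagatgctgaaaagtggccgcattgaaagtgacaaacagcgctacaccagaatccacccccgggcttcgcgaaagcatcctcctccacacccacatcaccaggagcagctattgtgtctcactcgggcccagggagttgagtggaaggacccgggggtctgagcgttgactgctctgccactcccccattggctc
Hmx2: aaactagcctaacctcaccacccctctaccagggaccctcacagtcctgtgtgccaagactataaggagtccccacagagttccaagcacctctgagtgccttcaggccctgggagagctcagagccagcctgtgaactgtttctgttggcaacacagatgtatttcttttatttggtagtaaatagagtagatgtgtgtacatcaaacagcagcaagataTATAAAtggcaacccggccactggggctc

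TATAAA, the core of a TATA box, stood 33 to 28 bases before the Hcrt start and 29 to 24 bases before the first Hmx2 start. It is found on either strand in 12.4% of the same windows of 32851 RefSeq promoters. Of the 8 genes 7 had a promoter in the table, Nptx2 not among them, and they gave 10 windows. No other member window held TATAAA on either strand. TAATTA, a core bound by LIM homeodomain proteins, CAAGTG, bound by Hmx proteins, TGACGTCA, the cAMP response element, and TCAAGGTCA, bound by Nr6a1, were also searched on both strands and had no match in the 10 windows. Over all promoters these were found in 4.84%, 11.6%, 1.55% and 0.387%, in that order.

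The other members were Lhx9 (ENSMUSG00000019230, chr1:138825186-138848577, minus strand), Qrfp (ENSMUSG00000043102, chr2:31806166-31810580, minus strand), Nptx2 (ENSMUSG00000059991, chr5:144545902-144557478, plus strand), Nr6a1 (ENSMUSG00000063972, chr2:38723370-38927688, minus strand) and Hmx3 (ENSMUSG00000040148, chr7:131542867-131544925, plus strand). Hmx3 and Hmx2 are neighbours, with 3.85 kb between them and no other protein-coding gene in that stretch. Both lie inside the span of Fgfr2, a fibroblast growth factor receptor gene on the opposite strand, without sharing exonic bases with it. Whether the counting used strand is not given in the sources used here.

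Libraries held 16.3 to 32.9 M reads in genes, and levels are given as CPM, a gene's counts per M reads in genes of that library. A count of 0 allows up to 3 reads, which is 0.0912 to 0.184 CPM depending on the library, and these limits cover counting error only. The sorted cells were not neurons alone. All 10 pan-neuronal markers were detected in every group, but so were all 10 astrocyte and all 10 oligodendrocyte markers, and Gfap, an astrocyte filament gene, stood at 2408 to 3479 CPM in mCherry-positive and 998 to 1337 CPM in mCherry-negative libraries. Markers of the pituitary summed to 9.68, 2340 and 5559 CPM in mCherry-positive replicates 1, 2 and 3, against 7.67, 225 and 180 CPM in mCherry-negative replicates. The mCherry-positive libraries thus differed widely among themselves in pituitary genes, with replicate 1 low and replicates 2 and 3 high.

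Per kilobase of exon, the scale on which levels of different genes can be set side by side, the members fell into 2 ranges of abundance. Nptx2 averaged 7.38 and Pdyn 3.55 CPM per kb over the 12 libraries, and no library was without reads of either. Nr6a1 followed at 0.287 CPM per kb and Hcrt at 0.180 CPM per kb. Hmx3 had 0.0878, Hmx2 0.0779, Qrfp 0.0469 and Lhx9 0.0239 CPM per kb. Hcrt had a read in 11 of 12 libraries, Qrfp in 10, Lhx9 in 9, Hmx3 in 8 and Hmx2 in 7. The gene the mCherry reporter stands for was thus among the scarce members, and Pdyn per kb was above it in every library.

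**Figure D1:**
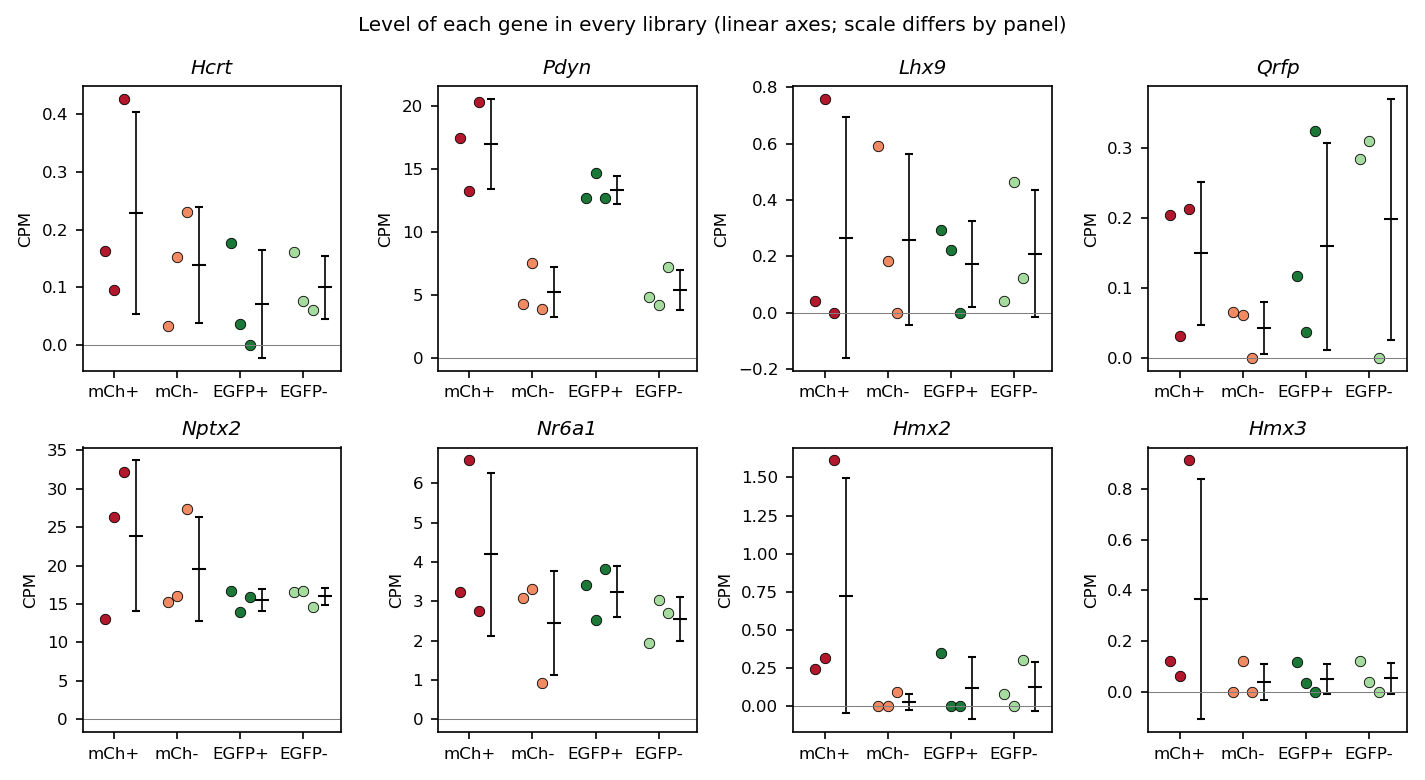
Level of each of the 8 genes in every library, in CPM on linear axes that differ by panel and have a line at 0 (mCh, mCherry); points are replicates 1, 2 and 3 from left to right, and the black mark gives the mean ± SD of 3 libraries. Pdyn is higher in positive than in negative cells of both sorts without overlap, while Hcrt stays below 0.43 CPM throughout and Hmx2 and Hmx3 stand out in mCherry-positive replicate 3.

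Pdyn, the prodynorphin gene, was the member with a clear difference, and it was higher in reporter-positive cells of both sorts. It stood at 17.4, 13.2 and 20.3 CPM in mCherry-positive replicates 1, 2 and 3, against 4.28, 7.55 and 3.92 CPM in mCherry-negative replicates. EGFP-sort levels were 12.7, 14.6 and 12.7 CPM in EGFP-positive replicates, against 4.86, 4.19 and 7.18 CPM in EGFP-negative replicates. Positive and negative libraries did not overlap in either sort, and both negative groups lay at nearly the same level. Group means were 17.0 ± 3.56 CPM in mCherry-positive and 5.25 ± 2.00 CPM in mCherry-negative cells, and 13.3 ± 1.12 CPM in EGFP-positive and 5.41 ± 1.57 CPM in EGFP-negative cells (SD, n = 3 each).

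Genes that passed a filter on low counts were tested with the quasi-likelihood method of edgeR, p-values were adjusted over all of them after Benjamini and Hochberg, and a gene was called at an adjusted p under 0.05. Pdyn, Nptx2 and Nr6a1 passed the filter in both sorts, and the other 5 members were too low for it. In the EGFP sort Pdyn had a log2 fold change of 1.42 ± 0.23 (SE) with an edgeR adjusted p of 0.00364, and it was the 1 member called, where 16.1% of 16326 genes were called, 8.99% as higher and 7.07% as lower. Leaving out each EGFP library in turn kept that call. The mCherry sort gave a log2 fold change of 1.66 ± 0.36 (SE) with an edgeR adjusted p of 0.0598. None of the 3 tested members was called there, where 1.2% of 17369 genes were called, 0.541% as higher and 0.656% as lower. Of the 3 only Pdyn had an unadjusted edgeR p under 0.05 (9.6e-04), as 3233 of all 17369 genes tested had. DESeq2 called Pdyn with an adjusted p of 2.47e-04. It also called more genes of some lists named below than edgeR did, and its share over all genes is not reported here. Over the alternatives to the mCherry test the adjusted p of Pdyn ran up to 0.206, with each library that was left out giving 0.0907 or more.

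The spread between replicates differed between the sorts, with a common coefficient of variation of 0.382 in the mCherry sort and 0.189 in the EGFP sort. The test of the difference itself, the mCherry effect minus the EGFP effect in 1 fit of all 12 libraries, gave 0.21 ± 0.42 (SE) on the log2 scale for Pdyn with an edgeR adjusted p of 0.859. None of the 4 members tested in that fit was called, with edgeR or with DESeq2, and none had an unadjusted p under 0.05, where 1.44% of genes were called, 0.886% as higher and 0.559% as lower. An exact permutation test of Pdyn CPM gave p = 0.1 in each sort (2-sided, n = 3 each), the smallest that 3 against 3 libraries allow. Groups whose libraries did not overlap, with the positive cells higher, were found for 12.7% of genes tested in the mCherry sort and 13.4% in the EGFP sort. With the positive cells lower, the shares were 12.7% in the mCherry sort and 24.5% in the EGFP sort.

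Sums of other marker lists also differed between positive and negative cells. The 10 astrocyte markers summed to 10187 to 14132 CPM in mCherry-positive and 5193 to 9051 CPM in mCherry-negative libraries, and to 16787 to 20446 CPM in EGFP-positive and 9534 to 9847 CPM in EGFP-negative libraries, without overlap in either sort and with no marker at 0. Single markers were not all alike. TMM-scaled Aldh1l1 averaged 548 CPM in mCherry-positive and 655 CPM in mCherry-negative cells, but 804 CPM in EGFP-positive and 421 CPM in EGFP-negative cells. Its difference of effects was called (-1.21, edgeR adjusted p 0.0265). In the mCherry sort Gfap was called (log2 fold change 1.45, edgeR adjusted p 0.0307), and leaving out 1 library gave 0 to 1 astrocyte calls. The 10 pan-neuronal markers summed to 1084 to 2088 CPM in mCherry-positive and 1510 to 2063 CPM in mCherry-negative libraries, which overlap, and to 839 to 1076 CPM in EGFP-positive and 1317 to 1369 CPM in EGFP-negative libraries, which do not. The 8 ependymal and tanycyte markers, none of them at 0, also stood higher without overlap, at 93.1 to 120 CPM in mCherry-positive and 33.1 to 65.5 CPM in mCherry-negative libraries, and at 110 to 131 CPM in EGFP-positive and 76.8 to 84.8 CPM in EGFP-negative libraries. Sums of the 8 markers of dividing cells were lower without overlap, at 216 to 297 CPM in mCherry-positive and 549 to 752 CPM in mCherry-negative libraries, and at 620 to 722 CPM in EGFP-positive and 760 to 804 CPM in EGFP-negative libraries. Sums of the 7 GABAergic markers were lower as well, at 323 to 607 CPM in mCherry-positive and 804 to 1187 CPM in mCherry-negative libraries, and at 490 to 509 CPM in EGFP-positive and 654 to 714 CPM in EGFP-negative libraries. In the mCherry sort 5 of 8 dividing-cell and 3 of 7 GABAergic markers were called lower, led by Cdca8 (log2 fold change -1.68, edgeR adjusted p 0.0181), a gene of mitosis, and Dlx2 (-1.92, edgeR adjusted p 0.0227), a factor of GABAergic neurons. Leaving out 1 mCherry library gave 0 to 5 dividing-cell and 0 to 2 GABAergic calls. The 3 GABAergic calls were Dlx1, Dlx2 and Dlx5. Of the same list, TMM-scaled Gad1 averaged 175 ± 51.8 CPM in mCherry-positive and 192 ± 6.82 CPM in mCherry-negative cells (SD, n = 3 each). Slc32a1 averaged 4.85 ± 1.78 and 5.58 ± 3.44 CPM, in that order. Other sums were lower without overlap in the EGFP sort and overlapped in the mCherry sort. Oligodendrocyte markers were at 1847 to 1957 CPM in EGFP-positive and 5569 to 5877 CPM in EGFP-negative libraries. Microglia markers were at 8.59 to 10.9 CPM and 43.8 to 59.9 CPM, in that order. Mural and mesenchymal sums fell too (76.1 to 104 against 315 to 348 CPM), while Acta2, Tagln and Pdgfrb averaged higher in EGFP-positive cells. The part of any of these cell types in the Pdyn difference was not tested, and in such bulk libraries fewer cells of a type and less RNA per cell cannot be told apart. Pituitary markers summed to 9.68, 2340 and 5559 CPM in mCherry-positive replicates 1, 2 and 3, where Pdyn was 17.4, 13.2 and 20.3 CPM, and to 39.0 to 66.7 CPM in EGFP-positive against 368 to 475 CPM in EGFP-negative libraries, and their part in the Pdyn values was not tested.

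The genes whose profile over the 12 libraries was most like that of Pdyn, by Pearson correlation of log2 CPM, were Svep1 (r = 0.97), which encodes a protein of the extracellular matrix, P4ha3 (r = 0.96), a subunit of collagen prolyl hydroxylase, and Appl2 (r = 0.95), an endosomal adaptor. After the group means were removed, r was 0.81 for Svep1, 0.86 for P4ha3 and 0.72 for Appl2. These values describe 12 libraries that share virus and input within a sort, and the 3 genes were picked from all genes for likeness.

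The other opioid genes did not all move alike. Of 6 listed peptide and receptor genes, none was called in the mCherry sort, with edgeR or with DESeq2, and 1 had an unadjusted p under 0.05. The most abundant of them, Oprl1 and Penk, had log2 fold changes of -0.03 and -0.64. The gene with the low unadjusted p was Oprk1, the kappa receptor on which dynorphins act, named here after its values were seen. It stood at 3.80, 3.01 and 7.60 CPM in mCherry-positive replicates, against 0.527, 0.675 and 3.04 CPM in mCherry-negative replicates, with a log2 fold change of 1.74 ± 0.73 (SE) and an edgeR adjusted p of 0.241. EGFP-sort values of Oprk1 were 1.94, 1.41 and 2.36 CPM in EGFP-positive replicates, against 1.54, 1.05 and 1.35 CPM in EGFP-negative replicates, which overlap. The nociceptin receptor gene Oprl1 fell in the EGFP sort (log2 fold change -0.75 ± 0.17, SE, edgeR adjusted p 0.0188) and was the 1 gene called of 4 tested. That call was lost without EGFP-positive replicate 2 and without any of EGFP-negative replicates 1, 2 and 3, and without EGFP-positive replicate 1 there were 2 calls.

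Nptx2, the pentraxin gene, was the most abundant member per kb and did not pass the test in either sort. It stood at 13.0, 26.3 and 32.2 CPM in mCherry-positive replicates 1, 2 and 3, against 15.2, 16.0 and 27.4 CPM in mCherry-negative replicates. The EGFP sort had 16.7, 14.0 and 15.9 CPM in EGFP-positive replicates, against 16.6, 16.7 and 14.7 CPM in EGFP-negative replicates. The groups overlapped in both sorts, and the mCherry-positive libraries spanned a wider range than all EGFP libraries together. Log2 fold changes were 0.25 ± 0.35 (SE) in the mCherry sort, with an edgeR adjusted p of 0.737, and 0.06 ± 0.16 (SE) in the EGFP sort, with an edgeR adjusted p of 0.828. The order of the mCherry-positive libraries was also that of their summed pituitary markers, and the part of those cells in the Nptx2 values was not tested.

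The genes most like Nptx2 over the 12 libraries were Spock1 (r = 0.93, within groups 0.95), a proteoglycan gene, Isyna1 (r = 0.93, within groups 0.93), an enzyme of inositol synthesis, and Syt5 (r = 0.92, within groups 0.94), a synaptotagmin of secretory vesicles. Of the 9 other pentraxin and AMPA receptor genes 7 were tested in each sort. In the mCherry sort none was called with edgeR, against 1 with DESeq2, 1 with an unadjusted p under 0.05 and 1 without mCherry-positive replicate 1. The most abundant were Gria2 (log2 fold change -0.20) and Gria1 (-0.01). Among EGFP-sorted cells 3 fell and 1 rose, among them the AMPA receptor subunits Gria4 (log2 fold change -0.93) and Gria2 (-0.57), while the long pentraxin Ptx3 rose (0.89), with edgeR adjusted p of 0.0162, 0.0162 and 0.0358. Without EGFP-positive replicate 2, or without any of EGFP-negative replicates 1, 2 and 3, no gene of this list was called.

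Nr6a1, an orphan nuclear receptor known for repressing Pou5f1 in early development, was low and also overlapped between groups. It stood at 3.23, 6.58 and 2.77 CPM in mCherry-positive replicates, against 3.10, 3.31 and 0.922 CPM in mCherry-negative replicates. Levels in the EGFP sort were 3.41, 2.53 and 3.82 CPM in EGFP-positive replicates, against 1.95, 3.02 and 2.70 CPM in EGFP-negative replicates. Single libraries set the extremes, with mCherry-positive replicate 2 highest and mCherry-negative replicate 3 lowest. The log2 fold changes, 0.75 ± 0.60 (SE) in the mCherry sort and 0.46 ± 0.30 (SE) in the EGFP sort, had edgeR adjusted p of 0.537 and 0.340. The mCherry value was 0.27 in the lowest and 1.06 in the highest of the 6 fits that each left out 1 library. Most like Nr6a1 were Cwc25 (r = 0.89), a splicing factor, Pabpc4l (r = 0.87), a poly(A)-binding protein gene, and Ces1f (r = 0.87), a carboxylesterase gene.

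Of 15 listed orphan nuclear receptors and Nr6a1 targets, Pou5f1 itself had no read in any library. In the mCherry sort 1 of 12 tested was called, Nr2f2 (COUP-TFII), which rose by 1.62 ± 0.25 (SE) on the log2 scale with an edgeR adjusted p of 0.0349. That call was lost without mCherry-positive replicate 2 or 3 and without mCherry-negative replicate 1 or 2. Of 11 tested in the EGFP sort 2 were called, with Nr2e1, a factor of neural stem cells, higher (0.76) and Nr5a1, a factor of the ventromedial hypothalamus and pituitary, lower (-3.09), with edgeR adjusted p of 0.00688 and 0.00313. Without EGFP-positive replicate 1 there were 4 calls.

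**Figure D2:**
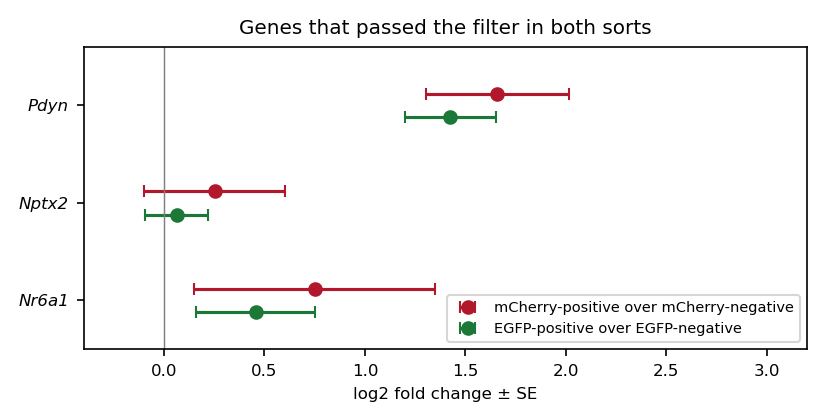
Log2 fold change ± SE of Pdyn, Nptx2 and Nr6a1, positive over negative cells, in the mCherry sort (red) and the EGFP sort (green), from edgeR. Pdyn lies at 1.66 and 1.42, clear of 0 by several SE, whereas Nptx2 and Nr6a1 lie between 0.06 and 0.75.

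Between the sorts the members that could be tested did not differ beyond their spread. For mCherry-positive against EGFP-positive cells the log2 differences were 0.19 ± 0.29 (SE) for Pdyn, 0.46 ± 0.29 for Nptx2, 0.22 ± 0.48 for Nr6a1 and 0.57 ± 1.56 for Lhx9, with edgeR adjusted p of 0.683, 0.297, 0.783 and 0.833. For mCherry-negative against EGFP-negative cells they were -0.02 ± 0.30 (SE) for Pdyn, 0.30 ± 0.29 for Nptx2, -0.05 ± 0.49 for Nr6a1 and 0.30 ± 1.54 for Lhx9, with edgeR adjusted p of 0.987, 0.699, 0.982 and 0.955. With edgeR and with DESeq2 none of the 4 was called in either comparison, and none had an unadjusted p under 0.05, where 17.6% of genes were called between the positive groups (9.9% higher and 7.67% lower) and 3.96% between the negative groups (2.67% higher and 1.29% lower). The SE of Lhx9 was larger than its difference in both comparisons.

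Hcrt itself was counted at a handful of reads. It had 4, 3 and 14 reads in mCherry-positive replicates 1, 2 and 3, against 1, 5 and 5 reads in mCherry-negative replicates. It had 3, 1 and 0 reads in EGFP-positive replicates, against 4, 2 and 1 reads in EGFP-negative replicates. The groups overlapped in both sorts, and 14 of 21 reads in mCherry-positive cells came from replicate 3, which was also the library with the most pituitary RNA. Pooled over 3 libraries the level was 0.236 CPM in mCherry-positive cells (exact 95% Poisson interval 0.146 to 0.361) and 0.130 CPM in mCherry-negative cells (0.0649 to 0.233). EGFP-sort levels were 0.0534 CPM in EGFP-positive cells (0.0146 to 0.137) and 0.105 CPM in EGFP-negative cells (0.0422 to 0.216). Ordered by level, neighbouring groups had overlapping intervals. Those of the highest and lowest groups, mCherry-positive (0.146 to 0.361) and EGFP-positive cells (0.0146 to 0.137), did not overlap. The intervals cover counting error only.

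Because Hcrt failed the filter, pooled read rates were compared with an exact 95% binomial interval, beside an exact 2-sided permutation test of the CPM of single libraries. The EGFP-positive rate over the EGFP-negative rate was 0.510 (0.109 to 2.00), with an exact permutation p of 0.6. The mCherry-positive rate over the mCherry-negative rate was 1.82 (0.837 to 4.17), also with an exact permutation p of 0.6. Both intervals included 1. Without mCherry-positive replicate 3 the ratio of the mCherry sort turned to 0.960 (0.316 to 2.71), and leaving out mCherry-positive replicate 2 instead gave 2.41 (1.08 to 5.66). The EGFP ratio was 0.165 with EGFP-positive replicate 1 left out and 0.868 with EGFP-positive replicate 3 left out. All 6 libraries of the mCherry sort together held 32 Hcrt reads and all 6 of the EGFP sort 11, a ratio of 2.37 (1.17 to 5.22), with an exact permutation p of 0.136 over libraries. The counting interval thus excluded 1 while the spread between libraries did not set the sorts apart. This ratio was 1.65 (0.736 to 3.86) when mCherry-positive replicate 3 was left out, and 1.85 (0.911 to 4.08) when EGFP-positive replicate 3 was.

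The receptors of hypocretin were at a few CPM at most and neither was called in either sort with edgeR or DESeq2, nor had an unadjusted p under 0.05. Hcrtr1 had 0.286, 2.34 and 1.79 CPM in mCherry-positive replicates, against 0.692, 1.26 and 0 CPM in mCherry-negative replicates, and 0.706 to 0.940 CPM in EGFP-positive against 0.659 to 0.737 CPM in EGFP-negative libraries. Hcrtr2 was highest in mCherry-positive replicate 2, at 5.09 CPM, and lowest in mCherry-positive replicate 1, at 0.0408 CPM. Libraries of the same label thus held both ends of its range.

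Qrfp, the RFamide peptide gene, had about as many reads as Hcrt in all (45 and 43) from a longer exonic sequence. There were 5, 1 and 7 reads in mCherry-positive replicates, against 2, 2 and 0 reads in mCherry-negative replicates, and 2, 1 and 10 reads in EGFP-positive replicates, against 7, 8 and 0 reads in EGFP-negative replicates. The groups overlapped in both sorts. Pooled rate ratios were 3.09 (0.955 to 13.0, exact permutation p = 0.3) in the mCherry sort and 0.773 (0.338 to 1.74, exact permutation p = 1.0) in the EGFP sort. The EGFP ratio was 0.304 without EGFP-positive replicate 3. Its receptor gene Qrfpr had 0 to 1.08 CPM in mCherry-positive and 0.132 to 0.890 CPM in mCherry-negative libraries, 0.352 to 1.82 CPM in EGFP-positive and 0.365 to 0.798 CPM in EGFP-negative libraries, and was not called in either sort with edgeR or DESeq2, nor did it have an unadjusted p under 0.05. Without EGFP-positive replicate 1 it was called in the EGFP sort. Over all libraries Qrfp ran opposite to Hcrt between the sorts, with 17 reads in the mCherry sort and 28 in the EGFP sort, a ratio of 0.495 (0.254 to 0.937), which the libraries did not separate (exact permutation p = 0.253).

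**Figure D3:**
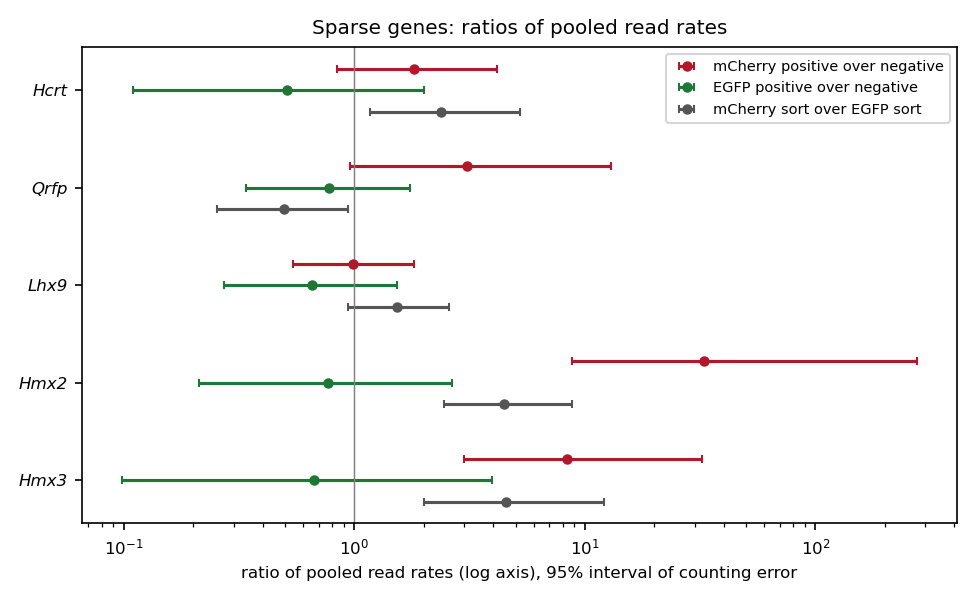
Ratios of pooled read rates on a log axis for the 5 genes too scarce for the gene-wise fit of a sort, with exact 95% binomial intervals of counting error; red is mCherry-positive over mCherry-negative, green EGFP-positive over EGFP-negative and grey all mCherry-sort over all EGFP-sort libraries. Every EGFP interval includes 1, and Hmx2 (32.8) and Hmx3 (8.32) lie farthest right in the mCherry sort.

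Lhx9, a LIM homeodomain factor that in mice is needed for a full number of Hcrt neurons, varied between replicates more than between groups. It had 1, 24 and 0 reads in mCherry-positive replicates 1, 2 and 3, against 18, 6 and 0 reads in mCherry-negative replicates, and 5, 6 and 0 reads in EGFP-positive replicates, against 1, 12 and 2 reads in EGFP-negative replicates. In each group most of the reads stood in 1 or 2 libraries. Rate ratios were 0.991 (0.543 to 1.81, exact permutation p = 1.0) in the mCherry sort and 0.654 (0.272 to 1.52, exact permutation p = 0.9) in the EGFP sort. Leaving out mCherry-positive replicate 2 gave 0.0615, and leaving out mCherry-negative replicate 1 gave 2.54, so the ratio in the mCherry sort rests on these libraries. The EGFP ratio was 2.01 without EGFP-negative replicate 2. Lhx9 reached the filter only in the fit of 12 libraries, where the genes most like it were Esf1 (r = 0.76), Sdhaf3 (r = 0.75) and Gpt (r = 0.73), correlations that rest on libraries with 0 to 24 reads.

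Of 14 other LIM homeodomain factors and LIM-binding cofactors, 12 were tested in each sort. In the mCherry sort 1 was called, the cofactor Ldb2, which rose by 1.36 ± 0.24 (SE) on the log2 scale (edgeR adjusted p 0.0349). In each of the 6 fits without 1 mCherry library the list had no call, whichever replicate of mCherry-positive or mCherry-negative cells was left out. Among EGFP-sorted cells 2 rose and 2 fell, among them Ldb2 (1.08) and Lmx1a (1.26) higher and Lhx6, a factor of migrating interneurons, lower (-0.42), with edgeR adjusted p of 0.00230, 0.0199 and 0.0380. There was 1 call without EGFP-positive replicate 2 or EGFP-negative replicate 1 or 2, and 2 calls without EGFP-negative replicate 3.

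Hmx2 and Hmx3, neighbouring homeodomain genes that act in the hypothalamus and inner ear, had at most 6 reads in any library outside the mCherry-positive cells. Hmx2 had 6, 10 and 53 reads in mCherry-positive replicates 1, 2 and 3, against 0, 0 and 2 reads in mCherry-negative replicates, and 6, 0 and 0 reads in EGFP-positive replicates, against 2, 0 and 5 reads in EGFP-negative replicates. Hmx3 had 3, 2 and 30 reads in mCherry-positive replicates, against 0, 4 and 0 reads in mCherry-negative replicates, and 2, 1 and 0 reads in EGFP-positive replicates, against 3, 1 and 0 reads in EGFP-negative replicates. For Hmx2 all mCherry-positive libraries lay above all mCherry-negative ones, for Hmx3 the groups overlapped, and for both genes most reads were in mCherry-positive replicate 3.

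The Hmx2 rate in mCherry-positive cells was 32.8 times that in mCherry-negative cells (exact 95% binomial interval 8.75 to 276, 69 against 2 reads), with an exact permutation p of 0.1, the smallest possible. With mCherry-positive replicate 3 left out, the ratio was 12.1 (2.84 to 108). The Hmx3 ratio was 8.32 (2.98 to 32.2, exact permutation p = 0.3), and 1.89 (0.406 to 9.51) without mCherry-positive replicate 3. In the EGFP sort the ratios were 0.764 (0.212 to 2.66, exact permutation p = 1.0) for Hmx2 and 0.669 (0.0980 to 3.95, exact permutation p = 0.8) for Hmx3. With no filter on low counts, edgeR gave Hmx2 an adjusted p of 0.132 in the mCherry sort, and DESeq2 gave 0.0695, so it was called by neither. Between the sorts the rates, mCherry over EGFP, were 4.45 for Hmx2 and 4.54 for Hmx3, and 1.39 and 1.29 without mCherry-positive replicate 3.

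The library with the most Hmx2 and Hmx3 reads was also the highest in pituitary markers (5559 CPM), while replicate 1, with 9.68 CPM of those markers, still held 6 Hmx2 and 3 Hmx3 reads. The part of pituitary cells in these counts was not tested. Fgfr2, whose span covers both genes, had 148, 99.8 and 117 CPM in mCherry-positive replicates, against 137, 121 and 53.3 CPM in mCherry-negative replicates, and 105 to 164 CPM in EGFP-positive against 67.0 to 103 CPM in EGFP-negative libraries. The part of Fgfr2 reads in the Hmx2 and Hmx3 counts was not tested. Of 6 related Hmx and Nkx factors none was called in the mCherry sort with edgeR, against 3 with DESeq2 and 3 with an unadjusted p under 0.05, and the most abundant were Nkx2-2 (log2 fold change -0.50) and Nkx6-2 (1.49). Of 4 tested in the EGFP sort 1 was called, Nkx2-2, a factor of ventral progenitors and oligodendrocyte precursors, which fell by 1.70 on the log2 scale (edgeR adjusted p 4.49e-04).

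A list of 14 other genes reported in Hcrt neurons was compared in the same way. In the mCherry sort 1 of 14 was called, Plagl1, an imprinted zinc-finger gene, with 29.6, 30.7 and 47.6 CPM in mCherry-positive replicates, against 14.4, 13.2 and 6.82 CPM in mCherry-negative replicates (log2 fold change 1.61 ± 0.32, SE, edgeR adjusted p 0.0497). In the EGFP sort 1 rose and 3 fell of 13 tested. Plagl1 rose there too (0.85 ± 0.18, SE, edgeR adjusted p 0.0129), with 21.5, 24.5 and 21.9 CPM in EGFP-positive replicates, against 10.7, 15.3 and 14.7 CPM in EGFP-negative replicates. Plagl1 thus had the pattern of Pdyn, with no overlap in either sort. Positive cells were higher without overlap for 12.7% of genes tested in the mCherry sort and 13.4% in the EGFP sort. Without mCherry-positive replicate 1, 6 genes of the list were called in the mCherry sort, and without any other mCherry library none was. For EGFP-sorted cells 7 were called without EGFP-positive replicate 1. The median log2 fold change of the list was 1.12 in the mCherry sort, where that of all genes was 0.02. It was -0.18 in the EGFP sort, where that of all genes was -0.01. In mCherry-positive replicates 1, 2 and 3 the list summed to 807, 1602 and 2023 CPM, against 762 to 909 CPM in mCherry-negative libraries. Replicate 1 thus lay within the mCherry-negative range. Pituitary markers had the same order (9.68, 2340 and 5559 CPM), and their part in these sums was not tested.

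A glutamate transporter gene and a granin gene of this list had log2 fold changes of opposite sign in the mCherry and EGFP sorts. Slc17a6, the vesicular glutamate transporter VGLUT2 of glutamatergic neurons, had 6.86, 45.3 and 13.0 CPM in mCherry-positive replicates, against 1.12, 4.08 and 2.90 CPM in mCherry-negative replicates, and 1.59, 2.16 and 1.97 CPM in EGFP-positive replicates, against 4.38, 6.01 and 4.60 CPM in EGFP-negative replicates. Scg2, a granin of dense-core vesicles, had 63.6, 342 and 369 CPM in mCherry-positive replicates, against 22.1, 91.0 and 63.6 CPM in mCherry-negative replicates, and 22.4, 24.5 and 22.2 CPM in EGFP-positive replicates, against 57.4, 68.0 and 60.2 CPM in EGFP-negative replicates. For both genes the EGFP-positive libraries lay below all EGFP-negative ones, as they did for 24.5% of genes tested in that sort. The mCherry-positive libraries lay at or above the highest mCherry-negative values except Scg2 in replicate 1.

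The difference of the effects, mCherry minus EGFP, was 4.22 ± 0.84 (SE, log2) for Slc17a6 and 3.37 ± 0.74 (SE, log2) for Scg2, with edgeR adjusted p of 0.0294 and 0.0390, and these were the 2 of 14 called for the difference. The mCherry effects alone were 2.97 ± 0.72 and 2.08 ± 0.63 (SE, log2), with edgeR adjusted p of 0.0801 and 0.131. The EGFP effects were -1.27 ± 0.27 and -1.32 ± 0.13 (SE, log2), with edgeR adjusted p of 0.0123 and 4.84e-04, and the convertase gene Pcsk2 also fell there (-1.28 ± 0.19, SE, edgeR adjusted p 0.00304). Pituitary markers fell in the same libraries, with a sum of 39.0 to 66.7 CPM in EGFP-positive and 368 to 475 CPM in EGFP-negative libraries and 6 of 10 tested called, among them the hormone genes Pomc (log2 fold change -3.50), Tshb (-2.47) and Cga (-2.38), with edgeR adjusted p of 4.68e-05, 3.21e-04 and 4.84e-04. Their part in the falls of Scg2, Slc17a6 and Pcsk2 was not tested. The fit of the difference used a shared spread per gene for both sorts, whose common coefficients of variation were 0.382 (mCherry) and 0.189 (EGFP). The 2 calls of a difference moved with most libraries. There were 7 genes called without mCherry-positive replicate 1, 1 without mCherry-positive replicate 2 or 3 or mCherry-negative replicate 3, and none without mCherry-negative replicate 2 or without any replicate of EGFP-positive or EGFP-negative cells. Scg2 was high in the mCherry-positive libraries with the most pituitary markers, and the part of pituitary cells in it was not tested. Slc17a6 was lowest in mCherry-positive replicate 1 (6.86 CPM) and highest in replicate 2 (45.3 CPM), with 13.0 CPM in replicate 3. Pituitary markers summed to 9.68, 2340 and 5559 CPM in replicates 1, 2 and 3, and their part in Slc17a6 was not tested.

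In mCherry-positive against EGFP-positive cells 8 of the 14 were called and all 8 were higher, where 9.9% of genes were called as higher. The leading genes were Scg2 (log2 difference 3.32 ± 0.55, SE), Slc17a6 (3.35 ± 0.62) and the convertase gene Pcsk1 (3.35 ± 0.63), with edgeR adjusted p of 0.00128, 0.00254 and 0.00275. Pcsk1 had 2.53, 11.6 and 21.3 CPM in mCherry-positive and 0.705, 1.08 and 1.23 CPM in EGFP-positive replicates. Between the negative groups 1 was called, Igfbp3, an insulin-like growth factor binding protein, higher in mCherry-negative cells (1.63 ± 0.24, SE, edgeR adjusted p 0.00160), and there were 2 calls without mCherry-positive replicate 1. Pan-neuronal markers, summing to 1084 to 2088 CPM in mCherry-positive and 839 to 1076 CPM in EGFP-positive libraries, moved with this comparison. So did oligodendrocyte markers, at 4524 to 6561 CPM in mCherry-positive and 1847 to 1957 CPM in EGFP-positive libraries, and microglia markers, at 94.5 to 774 CPM in mCherry-positive and 8.59 to 10.9 CPM in EGFP-positive libraries. Pituitary markers were at 9.68, 2340 and 5559 CPM in mCherry-positive replicates 1, 2 and 3 and at 39.0 to 66.7 CPM in EGFP-positive libraries, and Pcsk1 had the same order as these markers among the mCherry-positive replicates. The part of these cell types in the 8 calls was not tested.

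**Figure D4:**
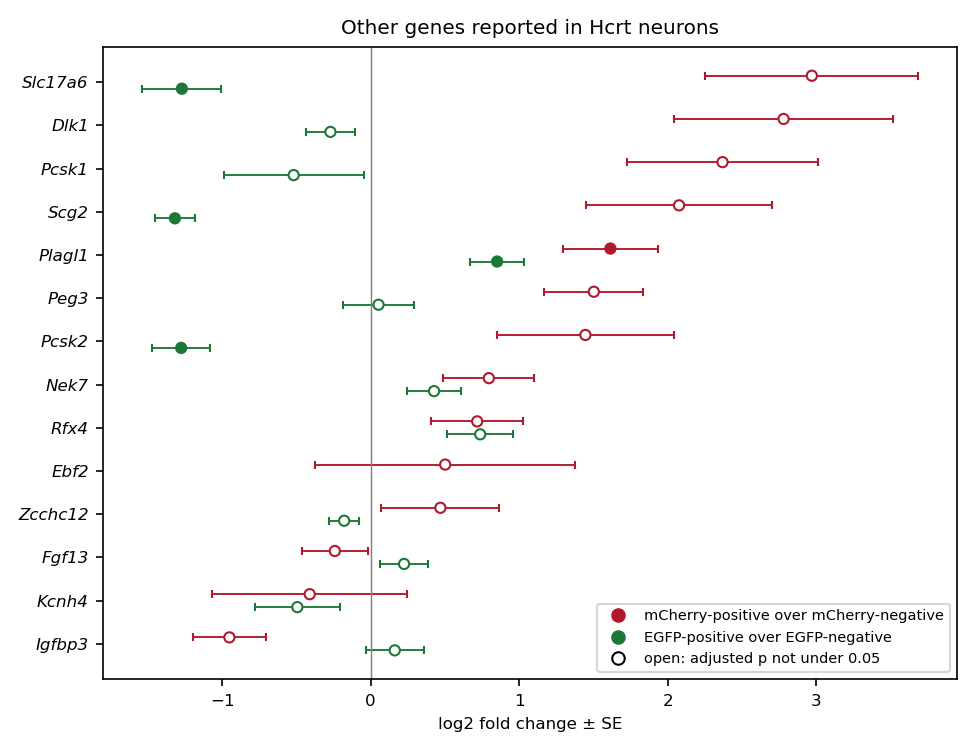
Log2 fold change ± SE of 14 other genes reported in Hcrt neurons, positive over negative cells, in the mCherry sort (red) and the EGFP sort (green), from edgeR; filled points have an adjusted p under 0.05 and open points do not, and Ebf2 was too low for the EGFP fit. Plagl1 is filled and above 0 in both sorts, while Slc17a6, Scg2 and Pcsk2 are filled and below 0 in the EGFP sort and open and above 0 in the mCherry sort.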

How the data were processed

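Sorted cells were profiled by RNA-seq, and the deposited values are raw counts of reads per Ensembl gene, 1 file per library, with no normalization by the authors. Per the submitters' processing notes, cutadapt 1.8, STAR 2.5.2b and HTSeq 0.6.1 were used with GRCm38. The sources used here give neither annotation release nor strand setting. The 5 summary entries that name no gene (31.4% to 38.2% of all counted reads) were left out.

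Symbols and positions came from GENCODE M21 (48349 of 48709 identifiers matched). Counts were fitted in edgeR 4.0.16 (R 4.3.3) with TMM factors, filterByExpr (minimum count 10, minimum total 15), a single group term and quasi-likelihood tests, per sort on 6 libraries or on all 12 for comparisons across sorts. DESeq2 1.42.0, other scaling and filters, a replicate block and leaving out each library were the alternatives. The SE is the absolute log2 fold change over the square root of F. Members below the filter were compared with SciPy 1.17.1 by pooled read rates. The fits were tested on simulated counts. Replicate files were compared in pairs, and their chi-square per degree of freedom was 6.54 to 97.0, so none was a copy.

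The members, the 19 gene lists and the tests were chosen with earlier results of these data known. The listed symbol Qrfprl was not found. Which pituitary markers had no reads is not reported here. Named were the 8 members, per list and comparison up to 3 called genes of smallest adjusted p or, with none called, the 2 of highest CPM, and per member passing the 12-library filter the 3 genes of highest Pearson r among those of at least 1 CPM (log2 CPM, prior count 2).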

Additional observations from a re-analysis of the deposited data

How the results depend on the processing

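The count of members called was unchanged for the difference of effects, for both comparisons between sorts and under DESeq2 size factors, and leaving out any library gave 0 in the mCherry sort and 1 in the EGFP sort. In the mCherry sort it was 1 with no filter (Pdyn, adjusted p 0.0152), with a mean of at least 10 CPM (0.0261) and with DESeq2 (2.47e-04), against 0 as reported. The shares of all genes called under these alternatives are not reported here. In the EGFP sort the count of members called was 0 with the 10 CPM filter, which removes Pdyn from the test. Hcrt rate ratios ran from 0.960 to 2.48 in the mCherry sort, from 0.165 to 0.868 in the EGFP sort and from 1.65 to 3.08 between the sorts when 1 library was left out.

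Over all genes in the fit, deviations of same-numbered positive and negative libraries correlated little (r of 0.126, -0.019 and 0.025 in the mCherry sort, 0.114, -0.005 and 0.029 in the EGFP sort). Not every library correlated best with its own number. With 3 libraries per group such values cannot show whether the numbers pair the samples. Pituitary markers were low in replicate 1 of both mCherry-positive (9.68 CPM) and mCherry-negative cells (7.67 CPM). In replicates 2 and 3 they were higher in both, at 2340 and 5559 CPM in mCherry-positive and 225 and 180 CPM in mCherry-negative cells. With a replicate block edgeR called 0 members in the mCherry sort (Pdyn log2 fold change 1.71, adjusted p 0.0603) and 1 in the EGFP sort (1.44, adjusted p 0.00273), and 4 rather than 1 of the 14 other Hcrt neuron genes in the mCherry sort. The replicate block turned the Lhx9 difference of effects to -0.13.

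Uncalled log2 values changed sign when 1 library was left out. The difference of effects ran from -0.049 to 0.58 for Pdyn, -3.29 to 1.60 for Lhx9, -0.079 to 0.47 for Nptx2 and -0.24 to 0.57 for Nr6a1. Between positive groups it ran from -3.01 to 1.14 for Lhx9 and -0.29 to 0.45 for Nr6a1. Between negative groups it ran from -0.41 to 0.22 for Pdyn, -1.06 to 1.69 for Lhx9, -0.035 to 0.45 for Nptx2 and -0.36 to 0.33 for Nr6a1. The cause was not tested. Ratios of Hmx2 without mCherry-negative replicate 3 and of Hmx3 without mCherry-negative replicate 2 have a denominator of 0 and give no value. Of the 14 other Hcrt neuron genes, 7 were called in the mCherry sort with no filter, 4 with the 10 CPM filter and 6 with DESeq2, and for the difference 7, 1 and 6. Low counts leave wide intervals for Hcrt, Qrfp and Lhx9, with at most 24 reads in a library. For Hmx2 and Hmx3 in the mCherry sort the counting intervals excluded 1, while an exact permutation test of 3 against 3 libraries cannot go below 0.1.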
